A study of Mus musculus with 10 samples.

Results

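Common lymphoid progenitors that lack Ly6D on their surface (Ly6D- CLPs) were compared with the CD127+ part of the lymphoid-primed multipotent progenitors (CD127+ LMPPs), using 5 of the series' 10 arrays. The arrays were chosen by their titles, 2 for Ly6D- CLPs and 3 for CD127+ LMPPs. All cells were sorted from the bone marrow of adult C57BL/6 mice as lineage-negative cells with high Flt3. The LMPPs had high cKit and Sca-1, and those used here carried CD127, the α chain of the interleukin 7 receptor. The CLPs had low cKit and Sca-1, carried CD127 and were divided by Ly6D. The remaining arrays, 3 of CD127- LMPPs and 2 of Ly6D+ CLPs, entered the same statistical fit and give the levels on either side of this step. The series title names innate and T lymphocyte development by routes that do not pass through CLPs, so the comparison asks how far CD127+ LMPPs and the least B-committed CLPs differ. Neither the labels nor the deposited table state if arrays of a group came from separate animals or sorts, and the p-values therefore cover just the spread between these arrays, which may be technical. Nor do they state if LMPP and CLP arrays were run together, so a processing batch and the cell type cannot be told apart.

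In the marrow, LMPPs can give lymphocytes, granulocytes and monocytes but little erythroid or platelet output. CLPs receive interleukin 7 signals, carry the recombinase machinery and give B, T, natural killer (NK) and innate lymphoid cells. Within CLPs, surface Ly6D marks cells that have begun the B cell program, while Ly6D- CLPs keep the wider lymphoid potential.

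The genes used for sorting followed the gates in part. Il7r, which encodes CD127, read 9.34 and 9.28 in the Ly6D- CLP arrays and 9.05, 9.15 and 9.10 in the CD127+ LMPP arrays, as log2 gene values. Both CLP arrays lay just above all 3 LMPP arrays, but the difference of 0.21 (SE 0.21) did not pass the test (adjusted p = 0.659). All adjusted p-values here come from limma with Benjamini-Hochberg adjustment over all genes, and a gene is called where its value is under 0.05. Kit, which encodes the stem cell factor receptor, read 7.50 and 7.73 in Ly6D- CLPs against 8.31, 8.40 and 8.27 in CD127+ LMPPs. All CLP arrays were lower, by 0.71 log2 (1.63-fold, adjusted p = 0.0322), as the lower cKit gate asks. The call was lost without any of 8 arrays, with adjusted p up to 0.12 without Ly6D- CLP array 1. Ly6a, which encodes Sca-1, read 5.98 and 5.04 against 7.08, 6.41 and 7.58. The CLP arrays lay below the LMPP arrays with a difference of -1.51 (SE 0.38), which did not pass (adjusted p = 0.0665). Flt3 differed by 0.08 (adjusted p = 0.804).

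Ly6d went from the higher to the lower level at this step. It read 5.59 and 6.17 in Ly6D- CLPs and 8.67, 8.81 and 8.53 in CD127+ LMPPs. The groups lay far apart, and the decrease of Ly6d in Ly6D- CLPs was 6.90-fold (log2 difference -2.79, SE 0.19, adjusted p = 0.00031). The call held without each array in turn, with adjusted p up to 0.00377. The CLPs had been sorted for absence of the Ly6D protein, whereas the LMPPs had not been divided by it. The direction thus in part restates the gate. This comparison had also been described beforehand as the step where Il7r stays high but Ly6d is lower in the CLPs. The Ly6d test and its stability therefore add no independent support. The Ly6D- label fits these arrays only in comparison, since their mean of 5.88 was above the 4.76 of CD127- LMPPs and below the 11.33 of Ly6D+ CLPs.

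Of 23152 genes, 476 were called, or 2.06%. Of these 147 were higher in Ly6D- CLPs (0.635%) and 329 lower (1.42%). For 107 higher and 257 lower genes, the CD127- LMPP mean lay nearer CD127+ LMPPs and the Ly6D+ CLP mean nearer Ly6D- CLPs. These calls follow the division of LMPPs from CLPs, which cannot be told apart from a processing batch. At an unadjusted p under 0.05 there were 4168 genes, 1904 higher and 2264 lower. The called and unadjusted counts of the gene lists below are to be read against these totals. The arrays of the groups did not overlap for 7949 genes, or 34.3% of all. A lack of overlap with 2 and 3 arrays thus says little by itself. In all 476 called genes the groups did not overlap. The median difference over all genes was -0.009. The count rests on few arrays. It was 76, 115 and 103 without CD127+ LMPP array 1, 2 and 3, and 180 and 112 without Ly6D- CLP array 1 and 2. It was 286 without CD127- LMPP array 1 and 292 without either Ly6D+ CLP array. Across genes, the values of the 2 Ly6D- CLP arrays correlated at Pearson r = 0.9725, the lowest of any pair within a group (range 0.9725 to 0.9855). Short genes were on the whole lower in the CLPs, as described further on. After a correction for gene span, chosen after seeing the data, 381 genes were called and the split turned to 225 higher and 156 lower, with 263 genes called both ways.

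Early lymphoid genes differed little between the groups. Of 18 lymphoid priming genes none was called, an unadjusted p under 0.05 was reached by 2 higher and 2 lower ones, and their median difference was 0.017 (-0.02 after span correction and -0.03 after quantile normalization). Dntt, the template-independent DNA polymerase of V(D)J joining, read 11.56 and 11.46 in Ly6D- CLPs and 11.53, 11.52 and 11.48 in CD127+ LMPPs. Its arrays overlapped at a high level. Rag1, a recombinase subunit, read 7.13 and 7.09 against 7.69, 7.72 and 7.65. Both CLP arrays were lower, but the difference of -0.58 (SE 0.16) did not pass (adjusted p = 0.0851). Rag1 reached a mean of 9.71 in Ly6D+ CLPs, above the Ly6D- CLPs by 2.60 log2 (SE 0.17, adjusted p = 0.00013). Its partner Rag2 read 6.98 and 7.01 in Ly6D- CLPs and 7.07, 7.50 and 7.51 in CD127+ LMPPs, a difference of -0.37 (adjusted p = 0.472).

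B lineage genes held no common direction at this step. Of 22 measured, Spib was called higher and Vpreb2 lower, and the median difference was -0.058. Vpreb2, a surrogate light chain gene, read 4.85 and 4.73 in Ly6D- CLPs and 5.48, 5.74 and 5.55 in CD127+ LMPPs. The CLP arrays were all lower, by 0.80 log2 (1.74-fold, adjusted p = 0.035), and the adjusted p was 0.111 after span correction. The brightest probe set of Vpreb2 gave a difference of -0.03 (adjusted p = 0.943). In Ly6D+ CLPs Vpreb2 was higher than in Ly6D- CLPs by 2.46 log2 (adjusted p = 0.000225). Spib, a transcription factor of B cells and plasmacytoid dendritic cells, read 4.54 and 4.59 against 3.85, 3.51 and 3.87. It was at least 1.08-fold higher in Ly6D- CLPs (log2 difference 0.82, adjusted p = 0.028). A fold is given as "at least" where the dimmer group's mean lay under a low-signal limit of 4.45, the 95th percentile of 1422 olfactory, vomeronasal and taste receptor genes, and the limit was then used in its place. Neither call held without Ly6D- CLP array 2, where adjusted p was 0.149 for Vpreb2 and 0.117 for Spib, nor without Ly6D- CLP array 1 or any CD127+ LMPP array. Vpreb2 was also not called without CD127- LMPP array 1 (adjusted p = 0.0565).

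Ebf1, the transcription factor that opens the B cell program, read 5.13 and 5.46 in Ly6D- CLPs and 5.80, 5.84 and 5.50 in CD127+ LMPPs. The CLP arrays were the lower, by a difference of -0.42 (SE 0.18) that did not pass (adjusted p = 0.259). The Ly6D+ CLPs were above the Ly6D- CLPs by 2.55 log2 (adjusted p = 0.000292). The adaptor gene Blnk (0.61, adjusted p = 0.0654), the factor gene Irf4 (0.80, adjusted p = 0.065) and Lef1 (0.83, adjusted p = 0.109) had positive differences that did not pass. Pax5, Cd79a, Igll1 and Vpreb1, genes of committed B cell precursors, had differences from -0.33 to -0.05 and none passed. Cd79a, Igll1 and Vpreb1 stayed below the low-signal limit in Ly6D- CLPs and in CD127+ LMPPs.

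**Figure D1:**
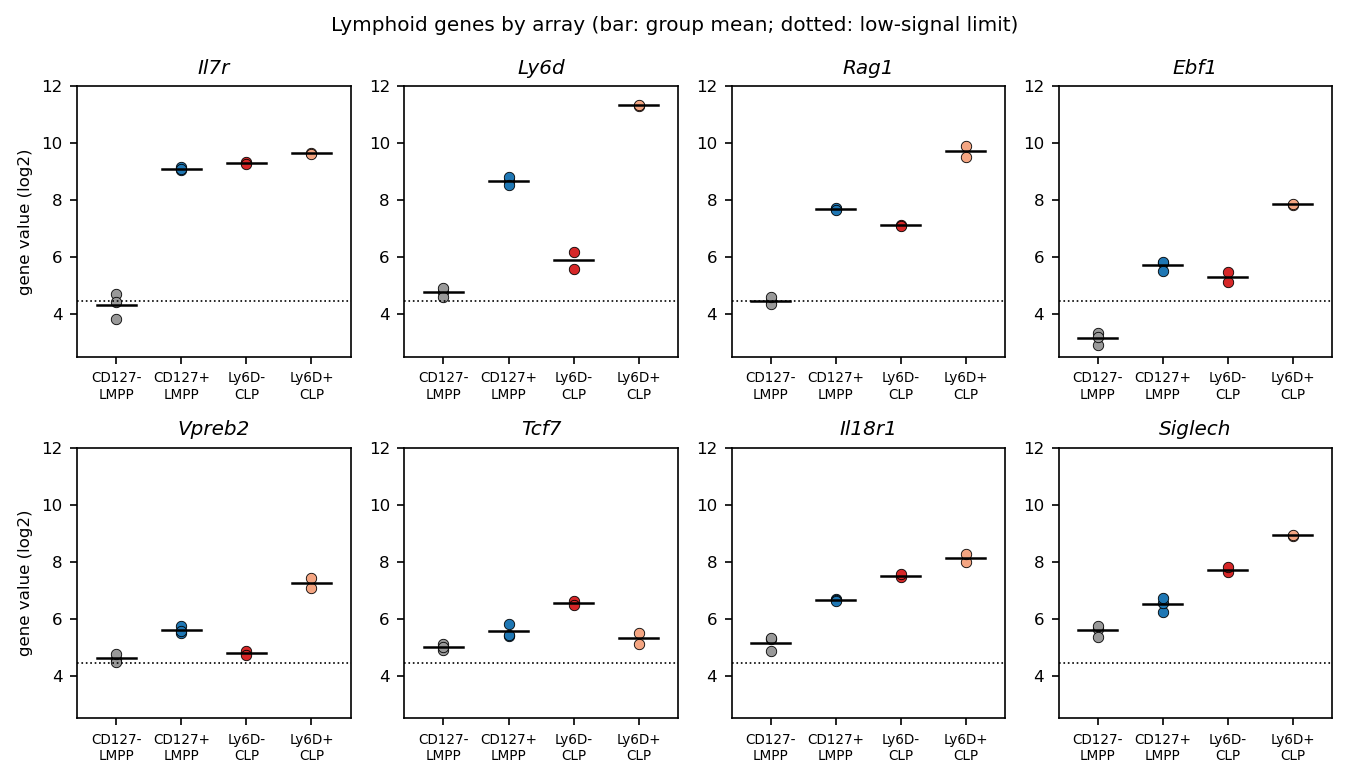
Log2 gene values of 8 lymphoid genes on each array of the 4 groups, with a bar at the group mean and a dotted line at the low-signal limit of 4.45. Il7r lies near 9 in CD127+ LMPPs and both CLP groups, Ly6d is lower in Ly6D- CLPs (mean 5.88) than in CD127+ LMPPs (mean 8.67), and Tcf7 has its highest mean, 6.54, in Ly6D- CLPs.

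Tcf7, which encodes the T cell factor TCF-1 that acts in early T cell and innate lymphoid precursors, was the called member of 19 measured T lineage and Notch pathway genes. It read 6.61 and 6.48 in Ly6D- CLPs and 5.38, 5.44 and 5.82 in CD127+ LMPPs. The CLP arrays lay above all LMPP arrays, and Tcf7 was 2.00-fold higher (log2 difference 1.00, SE 0.18, adjusted p = 0.0255). Of its 14 probe sets 13 were higher, and the brightest alone gave 0.06 (adjusted p = 0.938). The means in CD127- LMPPs (5.01) and Ly6D+ CLPs (5.30) were both below that of Ly6D- CLPs. The difference between the CLP groups was -1.25 and just failed the test (adjusted p = 0.0546). The call was lost without Ly6D- CLP array 1 (adjusted p = 0.0911) or 2 (0.0843) and without CD127+ LMPP array 1 (0.0771) or 2 (0.0852). Other genes of the program did not move with it. Gata3 differed by -0.05 (adjusted p = 0.912), Bcl11b by -0.04 (adjusted p = 0.958, both groups under the low-signal limit) and the Notch target Hes1 by -0.09 (adjusted p = 0.864). The list's median was -0.054, and 2 members were higher and 1 lower at an unadjusted p under 0.05.

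Innate lymphoid and NK genes had a median difference of 0.246, against -0.009 over all genes. Of 24 measured, 3 were called higher and none lower, against 0.635% called higher over all genes. At an unadjusted p under 0.05 there were 9 higher and 3 lower, against 1904 and 2264 of all 23152 genes. Il18r1, a chain of the interleukin 18 receptor, read 7.45 and 7.55 in Ly6D- CLPs and 6.69, 6.66 and 6.63 in CD127+ LMPPs. The groups were clearly apart, with Il18r1 1.79-fold higher in the CLPs (log2 difference 0.84, adjusted p = 0.0337), although its brightest probe set alone gave a difference of -0.02. Il18r1 stood at 5.14 in CD127- LMPPs and 8.11 in Ly6D+ CLPs, so its means rose in the order of the gates. Klrk1, the gene of the NK receptor NKG2D, and the granzyme gene Gzmc were higher by at least 1.10-fold and at least 1.27-fold (adjusted p = 0.0245 and 0.0224), with CD127+ LMPP means of 3.27 and 3.38 that lay under the low-signal limit. Klrk1 did not follow the order of the gates. Its highest mean was in CD127- LMPPs (4.95), above that of Ly6D- CLPs (4.59).

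The counts in this list depend on individual arrays. None of the 3 genes was called without Ly6D- CLP array 1 or without CD127+ LMPP array 1 or 2, and 1 was called without Ly6D- CLP array 2. Among regulators of innate lymphoid precursors, Nfil3 read 6.85 and 7.26 in Ly6D- CLPs and 6.40, 6.37 and 6.46 in CD127+ LMPPs. Both CLP arrays were higher, but the difference of 0.65 did not pass (adjusted p = 0.0711). Tox (0.62, adjusted p = 0.128) and the cytokine receptor genes Il17rb (0.60, adjusted p = 0.086) and Il2rb (0.54, adjusted p = 0.0924) also had positive differences that did not pass. Id2 (-0.44, adjusted p = 0.175), Zbtb16 (0.29, adjusted p = 0.461) and the lymphotoxin gene Ltb (-0.66, adjusted p = 0.0986) did not pass either.

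Of 18 cytokine receptor and JAK-STAT genes none was called, 6 were higher and 1 lower at an unadjusted p under 0.05, and the median difference was 0.205. Il2rg, the chain that the interleukin 7 receptor shares with other receptors, differed by 0.50 (adjusted p = 0.128) and Stat3 by 0.67 (adjusted p = 0.0881). Il2rg is counted on the innate lymphoid list as well.

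Siglech, a surface lectin of plasmacytoid dendritic cells and their precursors, read 7.63 and 7.80 in Ly6D- CLPs and 6.22, 6.54 and 6.72 in CD127+ LMPPs. All CLP arrays were higher, by 2.33-fold (log2 difference 1.22, SE 0.18, adjusted p = 0.0122), with all 9 probe sets higher. The call was lost without Ly6D- CLP array 2 (adjusted p = 0.0702) and with the brightest probe set alone (difference 0.86, adjusted p = 0.109). The gene rose through the 4 groups, from a mean of 5.59 in CD127- LMPPs to 8.92 in Ly6D+ CLPs. Of the 16 dendritic cell and MHC class II genes, Clec9a was also called higher (at least 1.65-fold, adjusted p = 0.049) and Bst2 lower (1.64-fold, adjusted p = 0.0483). Both of these calls were lost without any of the 10 arrays, with adjusted p up to 0.161 for Clec9a without Ly6D- CLP array 1 and up to 0.147 for Bst2 without the same array. Clec9a, a dendritic cell lectin gene, had its highest mean in CD127- LMPPs (6.34).

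Among genes on at least 3 probe sets that the naming rule admits, Nlrp3 and Skil had the largest increases in Ly6D- CLPs. Skil, which encodes SnoN, a co-repressor of TGF-β signalling, read 7.57 and 7.49 in Ly6D- CLPs and 5.98, 5.99 and 5.98 in CD127+ LMPPs. The arrays within each group lay close together, and Skil was 2.92-fold higher (log2 difference 1.55, SE 0.15, adjusted p = 0.00167), a call that held without each array. Nlrp3, the sensor of an inflammasome, read 7.78 and 7.58 against 6.58, 5.83 and 5.84. Every CLP array was higher, by 3.04-fold (log2 difference 1.60, adjusted p = 0.00903), and all 13 probe sets were higher. For Nlrp3 the adjusted p stayed under the threshold without each array, up to 0.0481. Both genes stood at CLP levels in the Ly6D+ CLPs as well, with means of 7.53 for Skil and 7.90 for Nlrp3.

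Ddit3, which encodes the stress-induced factor CHOP, read 8.70 and 8.72 in Ly6D- CLPs and 7.62, 7.15 and 7.53 in CD127+ LMPPs. It was higher on both CLP arrays, by 2.42-fold (log2 difference 1.27, SE 0.16, adjusted p = 0.00708), and the call held without each array. With the brightest Ddit3 probe set alone the difference was 0.80 and did not pass (adjusted p = 0.0684). Ddit3 was the called member of 18 genes of the integrated stress and unfolded protein response, whose median difference was 0.213, with 5 higher and 1 lower at an unadjusted p under 0.05. Il10, an anti-inflammatory cytokine gene, read 8.61 and 8.49 against 7.46, 6.76 and 7.16. It was 2.68-fold higher (adjusted p = 0.0279) with no overlap. Cd97, an adhesion receptor gene, was 2.22-fold higher (adjusted p = 0.0138), Rasgef1b 2.59-fold (adjusted p = 0.0239), and Spp1, the osteopontin gene, 2.24-fold (adjusted p = 0.0248). Without Ly6D- CLP array 1 the adjusted p rose to 0.0948 for Il10, 0.0669 for Cd97, 0.0865 for Rasgef1b and 0.0902 for Spp1, and without array 2 to 0.0995 for Il10, 0.0839 for Rasgef1b and 0.0837 for Spp1. Leaving out CD127+ LMPP arrays ended these calls too, at adjusted p up to 0.0852 for Il10, 0.0517 for Cd97, 0.0521 for Rasgef1b and 0.0502 for Spp1. The glycosyltransferase gene B3gnt6 (at least 1.51-fold, adjusted p = 0.00903) and the granzyme gene Gzmf complete the 12 largest increases. With the brightest probe set alone the difference was 0.40 for Rasgef1b (adjusted p = 0.4) and 0.24 for Gzmf (adjusted p = 0.856). Both groups of Gzmf were under the low-signal limit, and the B3gnt6 call was lost without Ly6D- CLP array 2 (adjusted p = 0.0603).

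Several genes induced by receptor stimulation were higher in Ly6D- CLPs. They were chosen after their values were seen, apart from Egr3 and Fosl2, the called members of 20 immediate early and heat shock genes (list median 0.154). Bhlhe40, a transcriptional repressor gene, read 9.04 and 9.07 in Ly6D- CLPs and 8.31, 7.75 and 7.80 in CD127+ LMPPs. The CLP arrays were above all LMPP arrays, by 2.15-fold (log2 difference 1.11, adjusted p = 0.0287). The nuclear receptor gene Nr4a3 was 2.09-fold higher (adjusted p = 0.0327), Egr3 2.07-fold (adjusted p = 0.0351), Fosl2 1.71-fold (adjusted p = 0.0337) and the early activation antigen gene Cd69 1.66-fold (adjusted p = 0.0328). Cd83 and Cd86, surface molecules of antigen-presenting cells, were 2.10-fold and 1.84-fold higher (adjusted p = 0.0456 and 0.0462). The brightest probe set of Cd83 gave the opposite sign (-0.30). Other immediate early genes did not pass. Nr4a2 at 0.77 (adjusted p = 0.0517) and Fosb at 0.69 (adjusted p = 0.0632) came near the threshold. Egr1 was at 0.32 (adjusted p = 0.508), Egr2 at 0.21 (adjusted p = 0.606) and Nr4a1 at 0.49 (adjusted p = 0.147). Fos (-0.01, adjusted p = 0.984), Jun (-0.27, adjusted p = 0.323), Junb (-0.30, adjusted p = 0.402) and Ier3 (-0.52, adjusted p = 0.251) were level or lower and did not pass either. Of the 20 list members 14 had positive and 6 negative differences. The adjusted p of Bhlhe40, Nr4a3, Egr3, Fosl2, Cd69, Cd83 and Cd86 rose above the threshold without Ly6D- CLP array 2, to 0.117, 0.137, 0.18, 0.155, 0.105, 0.22 and 0.194. These calls were also lost without CD127+ LMPP arrays 2 and 3, where the adjusted p reached 0.133 for Cd83 and 0.0913 for Bhlhe40. Without Ly6D- CLP array 1 they were lost except for Egr3 and Cd83, and without CD127+ LMPP array 1 except for Bhlhe40 and Nr4a3.

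**Figure D2:**
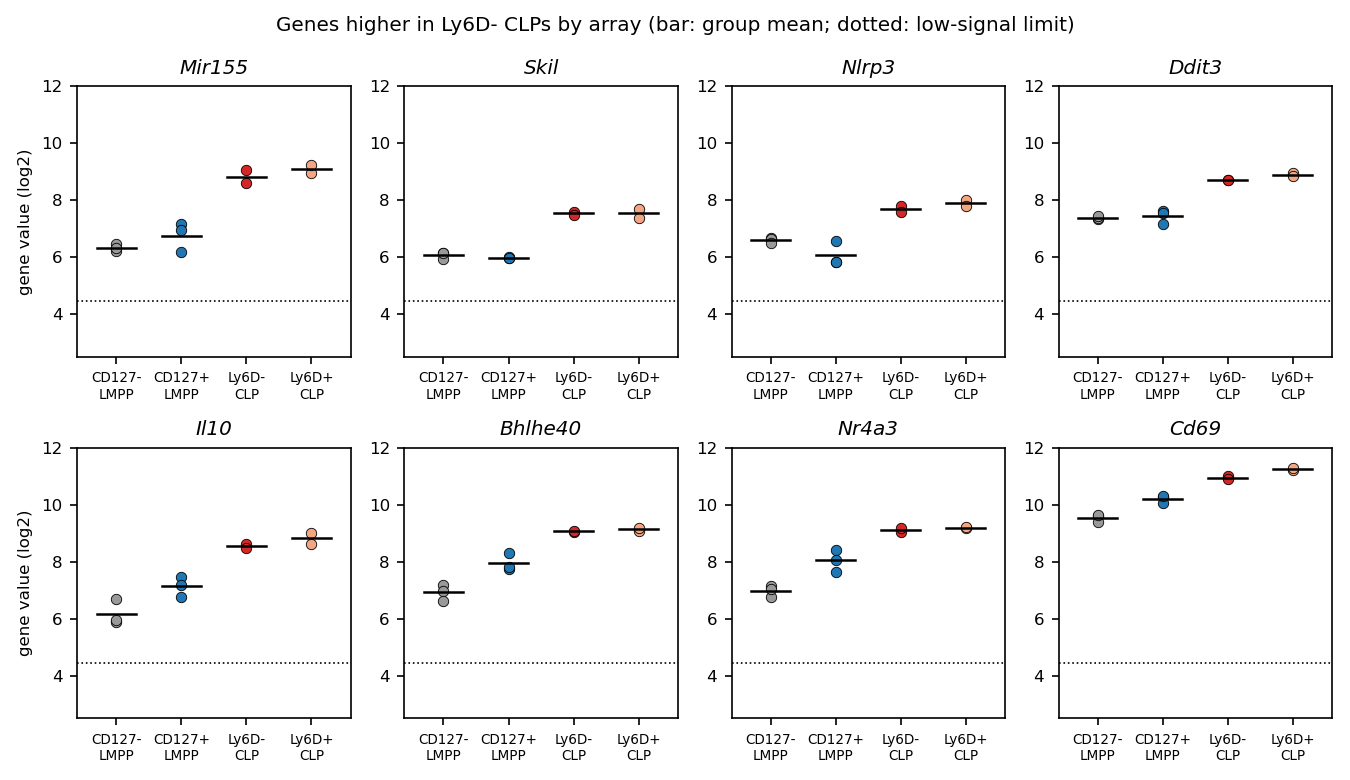
Log2 values of 8 genes that were called higher in Ly6D- CLPs than in CD127+ LMPPs, on each array of the 4 groups, with a bar at the group mean and a dotted line at 4.45. In each panel the Ly6D+ CLP arrays lie near the Ly6D- CLP arrays, as for Mir155 with means of 9.08 and 8.82.

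MicroRNA host transcripts were among the increases. The array reads the transcript at each microRNA gene, not the mature microRNA. Of 500 microRNA genes 10 were called higher and 2 lower, with a median difference of 0.07, and for 338 both group means were below the low-signal limit. Over all genes 0.635% were called higher and 1.42% lower. Among the microRNA genes called higher, Mir302a, Mir130a, Mir296, Mir367, Mir767 and Mirlet7f-1 had both group means below the limit. The 3 higher genes with both groups above the limit and a known role in blood cells are shown with their mature strands from RefSeq (GRCm38.p6), 5′ to 3′, with the seed, bases 2 to 8, in capitals. No seed is shared among them.
miR-155-5p (chr16:84714143-84714165, + strand): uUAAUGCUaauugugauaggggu
miR-155-3p (chr16:84714182-84714202, + strand): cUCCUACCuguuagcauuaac
miR-142a-5p (chr11:87756867-87756887, + strand): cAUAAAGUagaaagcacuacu
miR-142a-3p (chr11:87756903-87756925, + strand): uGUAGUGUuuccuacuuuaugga
miR-15a-5p (chr14:61632075-61632096, - strand): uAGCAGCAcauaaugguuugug
miR-15a-3p (chr14:61632038-61632059, - strand): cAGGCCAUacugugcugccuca

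Mir155, whose product acts in lymphocyte activation and inflammation, read 8.59 and 9.04 in Ly6D- CLPs and 7.15, 6.17 and 6.94 in CD127+ LMPPs. Both CLP arrays were far above the LMPP arrays, and Mir155 was 4.17-fold higher (log2 difference 2.06, SE 0.26, adjusted p = 0.00708) on its 1 probe set. The call held without each array, with adjusted p up to 0.0462. Mir142, a microRNA gene of the blood lineages, read 8.07 and 7.90 against 7.03, 6.76 and 6.93. It was 2.10-fold higher without overlap (adjusted p = 0.0244), but not called without Ly6D- CLP array 1 (adjusted p = 0.0903) or 2 (0.0767) or any CD127+ LMPP array (up to 0.0816). Mir15a, whose product targets Bcl2, read 8.31 and 8.50 against 7.65, 6.70 and 6.09. The LMPP arrays were widely spread, and the 3.02-fold difference (adjusted p = 0.0456) was lost without any of 9 arrays, at adjusted p up to 0.169 without Ly6D- CLP array 2.

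Granule genes of mature neutrophils were lower in Ly6D- CLPs. Of 15 mature granulocyte genes 7 were called lower and none higher, against 1.42% called lower over all genes. All 15 differences were negative and the median was -1.471. Camp, the cathelicidin gene, read 5.59 and 4.59 in Ly6D- CLPs and 8.04, 8.81 and 8.31 in CD127+ LMPPs. The CLP arrays lay well below, and the decrease of Camp was 9.82-fold (log2 difference -3.30, SE 0.41, adjusted p = 0.00708), a call that held without each array. S100a8, a calprotectin subunit gene, read 7.46 and 7.38 against 10.77, 11.08 and 10.55. It was 10.4-fold lower without overlap (adjusted p = 0.0309), a call lost without any of the 5 compared arrays (up to 0.121). The chitinase-like gene Chi3l3 was at least 6.20-fold lower (adjusted p = 0.0122), Retnlg at least 4.33-fold (adjusted p = 0.021), S100a9 4.32-fold (adjusted p = 0.0345), Ngp 3.74-fold (adjusted p = 0.0218) and Lcn2 at least 3.33-fold (adjusted p = 0.027). The brightest probe set alone gave a log2 difference of -0.41 for Chi3l3 (adjusted p = 0.519), -2.96 for S100a9 (adjusted p = 0.0508) and -3.15 for Ngp (adjusted p = 0.0708).

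Pglyrp1, a granule peptidoglycan-binding protein gene outside the list, read 5.19 and 5.34 in Ly6D- CLPs and 6.97, 7.07 and 7.13 in CD127+ LMPPs. It was 3.47-fold lower with tight groups (adjusted p = 0.00423), and the call held without each array. Camp and S100a8 had their highest means in CD127+ LMPPs, and in CD127- LMPPs they stood at 4.76 and 7.52. The average level of the 15 mature granulocyte genes ran from 5.90 to 6.56 over the CD127+ LMPP arrays, from 4.69 to 4.78 over the Ly6D- CLP arrays and from 4.36 to 5.11 over the CD127- LMPP arrays. Ly6g, a neutrophil surface antigen gene, was below the low-signal limit, at means of 3.89 in Ly6D- CLPs and 4.22 in CD127+ LMPPs (adjusted p = 0.813). Cxcr2, Cd177, Mmp8 and Mmp9 did not pass. The part of mature cells in the sorted LMPPs in these differences was not tested. The count of 7 was 2 without CD127+ LMPP array 1 and 3 without array 2 or 3. It was 4 and 2 without Ly6D- CLP array 1 and 2, and 5 after span correction, where S100a8 (adjusted p = 0.0509) and S100a9 (0.0583) missed the threshold.

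**Figure D3:**
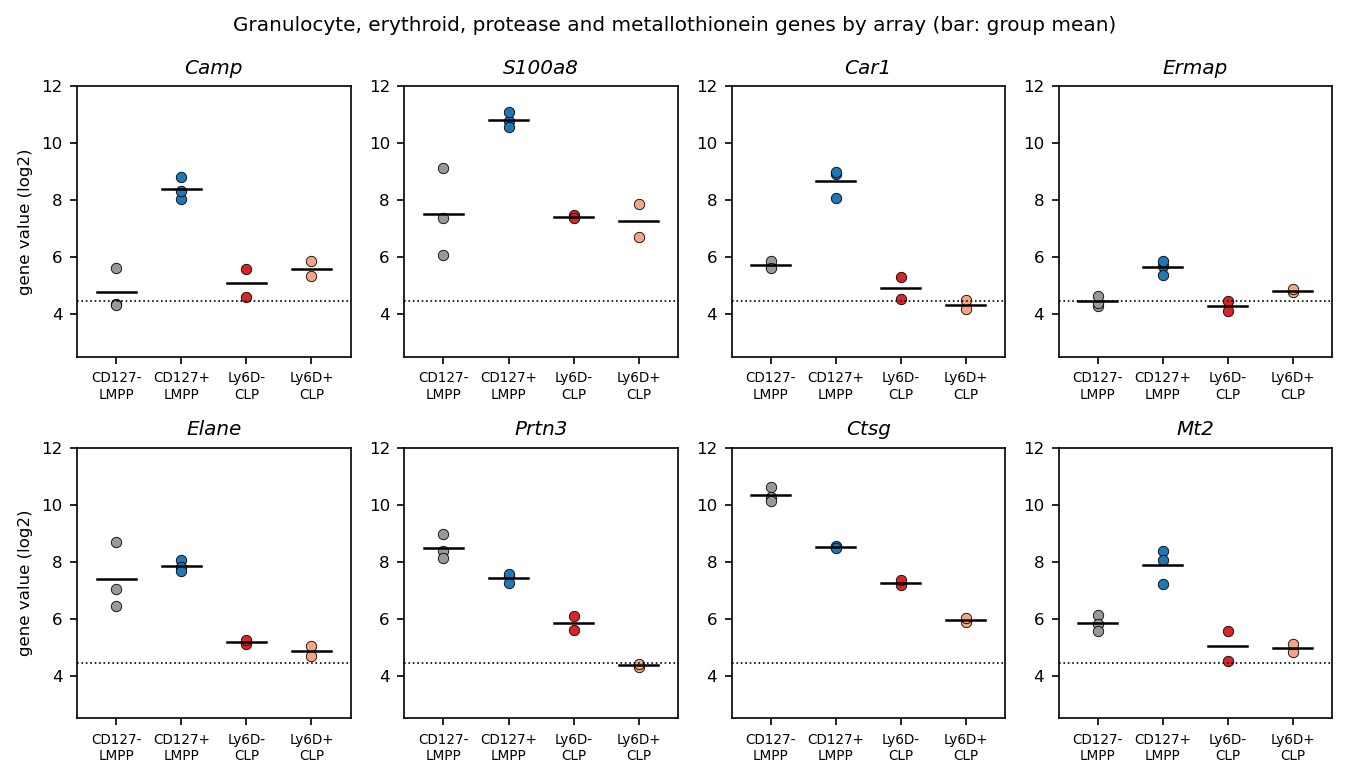
Log2 values of granulocyte granule genes (Camp, S100a8), erythroid genes (Car1, Ermap), neutrophil protease genes (Elane, Prtn3, Ctsg) and the metallothionein gene Mt2 on each array of the 4 groups, with a bar at the group mean and a dotted line at 4.45. Camp, S100a8, Car1 and Mt2 peak in CD127+ LMPPs, while Prtn3 and Ctsg fall through the 4 groups, Ctsg from a mean of 10.34 to 5.96.

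Of 30 granulocyte and monocyte progenitor genes 7 were called lower and none higher, against 1.42% called lower over all genes. The list's median difference was -0.416. Serine proteases of primary granules were among the 7 genes. Elane, the neutrophil elastase gene, read 5.11 and 5.26 in Ly6D- CLPs and 8.06, 7.80 and 7.67 in CD127+ LMPPs. Both CLP arrays were lower, by 6.33-fold (log2 difference -2.66, SE 0.49, adjusted p = 0.0264). Prtn3, the proteinase gene close to Elane on the chromosome, read 5.61 and 6.10 against 7.49, 7.58 and 7.23. It was 3.00-fold lower without overlap (adjusted p = 0.0138). Ctsg, the cathepsin G gene, read 7.16 and 7.34 against 8.51, 8.55 and 8.48. The decrease was 2.40-fold (log2 difference -1.26, SE 0.17, adjusted p = 0.00785), and this call held without each array. The Elane call was lost without any of the 5 compared arrays (adjusted p up to 0.0995), and that of Prtn3 without Ly6D- CLP array 1 (0.0679) or CD127+ LMPP array 1 (0.0502).

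Ctsg was lower again in Ly6D+ CLPs. Its means were 10.34 in CD127- LMPPs, 8.51 in CD127+ LMPPs, 7.25 in Ly6D- CLPs and 5.96 in Ly6D+ CLPs, and the last step of -1.29 passed as well (adjusted p = 0.0331). The last step was -1.49 for Prtn3 (adjusted p = 0.0875) and -0.33 for Elane (adjusted p = 0.901), neither of which passed, and Elane was no higher in CD127- LMPPs (mean 7.39) than in CD127+ LMPPs (mean 7.85). Lst1, a leukocyte transcript gene, Mc5r, a melanocortin receptor gene, and Rab38, a vesicle transport gene, were chosen after their values were seen for the same course. From CD127- LMPPs to Ly6D+ CLPs the Lst1 means were 9.18, 7.90, 6.78 and 5.30, those of Mc5r 7.80, 6.53, 5.40 and 3.75, and those of Rab38 8.03, 6.95, 5.71 and 4.68. The differences in Ly6D- CLPs were -1.12, -1.13 and -1.24 (adjusted p = 0.0265, 0.0235 and 0.00594). The Rab38 call held without each array, while Lst1 and Mc5r were lost without Ly6D- CLP array 1 (adjusted p = 0.11 and 0.0891) and without each CD127+ LMPP array.

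Lyz2, the lysozyme gene (2.24-fold, adjusted p = 0.0337), Cebpe, a factor of granule gene expression (at least 1.57-fold, adjusted p = 0.0122), the chemokine gene Ccl9 (2.09-fold, adjusted p = 0.033) and Nkg7, a granule membrane protein gene (2.12-fold, adjusted p = 0.00785), were the other called members. Nkg7 is also the called member of the 8 mature T and NK genes. It was called without each array, Cebpe in all cases but without Ly6D- CLP array 2 (adjusted p = 0.0648), and Lyz2 and Ccl9 were lost without any of the 5 compared arrays (up to 0.13 and 0.146). The brightest probe set of Cebpe gave -0.34 (adjusted p = 0.519), and the median probe set of Ccl9 -1.87 (adjusted p = 0.0502). Mpo, the myeloperoxidase gene, read 8.86 and 9.20 in Ly6D- CLPs and 9.51, 9.72 and 9.40 in CD127+ LMPPs. The CLP arrays were lower, but the difference of -0.52 did not pass (adjusted p = 0.142). Genes shared with monocytes went both ways without passing, with Csf1r at 0.44 (adjusted p = 0.207), F13a1 at 0.26 (adjusted p = 0.689) and Ly6c2 at -1.05 (adjusted p = 0.0683). The count of 7 ranged from 3 without CD127+ LMPP array 1 or either Ly6D- CLP array to 9 without CD127- LMPP array 1, and was 4 without CD127+ LMPP array 2 or 3.

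The promoters of the 3 protease genes are shown because all 3 were called lower at this step. Each holds 1 match to the letters GAGGAA, a core bound by PU.1, picked for display from several patterns counted. The windows are the 250 bases before the RefSeq start site (GRCm38.p6), 5′ to 3′ on the gene's strand, with the match in capitals. On either strand, 23.3% of 32851 mouse promoter windows of this length hold these letters at least once. The matches begin at -85 from the start site of Elane, -95 from that of Prtn3 and -216 from that of Ctsg. The erythroid core AGATAA, on either strand, is in 9.99% of all windows and in none of these 3. The C/EBP pattern TTGCNNAA is in 9.56% of all windows and in none of the 3.
Elane (chr10:79886062-79886311, + strand): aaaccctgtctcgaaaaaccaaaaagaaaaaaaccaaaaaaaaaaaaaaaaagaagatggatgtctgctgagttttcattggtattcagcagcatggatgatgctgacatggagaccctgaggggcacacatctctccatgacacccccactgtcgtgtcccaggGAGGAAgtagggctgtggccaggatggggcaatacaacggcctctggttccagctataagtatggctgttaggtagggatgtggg
Prtn3 (chr10:79879417-79879666, + strand): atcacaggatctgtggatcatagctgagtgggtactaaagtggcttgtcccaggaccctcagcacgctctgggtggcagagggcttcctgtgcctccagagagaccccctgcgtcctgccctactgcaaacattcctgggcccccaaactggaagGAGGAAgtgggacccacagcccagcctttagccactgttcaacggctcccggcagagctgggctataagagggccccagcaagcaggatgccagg
Ctsg (chr14:56102575-56102824, - strand): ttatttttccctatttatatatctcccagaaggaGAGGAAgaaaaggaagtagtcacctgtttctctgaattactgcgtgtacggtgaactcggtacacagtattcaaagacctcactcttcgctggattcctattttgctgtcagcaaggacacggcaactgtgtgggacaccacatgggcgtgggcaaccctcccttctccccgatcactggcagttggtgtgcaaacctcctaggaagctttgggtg

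Car1, a carbonic anhydrase gene of erythroid progenitors, had the largest decrease under the naming rule. It read 5.31 and 4.54 in Ly6D- CLPs and 8.93, 8.06 and 8.97 in CD127+ LMPPs. The groups lay far apart, and the decrease of Car1 was 13.3-fold (log2 difference -3.73, SE 0.29, adjusted p = 0.000715), a call that held without each array. Of 20 erythroid and megakaryocyte genes 4 were called lower and none higher, against 1.42% called lower over all genes. The list's median was -0.465. Rhag, a red cell membrane protein gene, was at least 1.11-fold lower (adjusted p = 0.0122), Ermap, an erythroid adhesion protein gene, at least 2.27-fold (adjusted p = 0.00903) and the carbonic anhydrase gene Car2 2.28-fold (adjusted p = 0.0322). The lineage factors Gata1 (-0.46, adjusted p = 0.291) and Klf1 (-0.51, adjusted p = 0.206) and the platelet factor gene Pf4 (-1.53, adjusted p = 0.056) did not pass. The transferrin receptor gene Tfrc (0.56, adjusted p = 0.065) and Gfi1b (0.31, adjusted p = 0.425) went the other way without passing. They were the 2 positive members, against 18 negative ones. Alas2 (-0.08, adjusted p = 0.926) and Slc4a1 (-0.03, adjusted p = 0.961) hardly differed. Without Ly6D- CLP array 2 only Car1 of the 4 stayed called. The brightest probe set gave -0.55 for Rhag (adjusted p = 0.512) and -0.42 for Ermap (adjusted p = 0.651). The count was 2 without Ly6D- CLP array 1 or CD127+ LMPP array 1. The average level of the 20 genes ran from 5.35 to 5.68 in CD127+ LMPPs, from 4.80 to 4.89 in Ly6D- CLPs and from 4.86 to 5.02 in CD127- LMPPs, and whether cells of these lineages contributed was not tested.

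Gata2, a transcription factor gene of stem and early myeloid progenitors, read 4.49 and 4.03 in Ly6D- CLPs and 5.61, 5.27 and 5.21 in CD127+ LMPPs. It was at least 1.88-fold lower (log2 difference -1.10, adjusted p = 0.0233), the 1 call among 23 stem and multipotent progenitor genes, and was lost without Ly6D- CLP array 2 (adjusted p = 0.119) or any CD127+ LMPP array (up to 0.0671). Its brightest probe set gave -0.33 (adjusted p = 0.443). The list's median was -0.289, and an unadjusted p under 0.05 was reached by 6 lower members and 1 higher one. Cd34 (-0.34, adjusted p = 0.251) and the stem cell factor gene Hlf (-0.45, adjusted p = 0.318) did not pass here. Cpa3, a mast cell protease gene, went the other way without passing (0.72, adjusted p = 0.104). Its means were 5.44 in CD127+ LMPPs and 6.16 in Ly6D- CLPs, and it was then lower in Ly6D+ CLPs by 2.12 log2 (adjusted p = 0.00509).

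The metallothionein genes Mt2 and Mt1, whose products bind zinc and copper, were the called members of 9 metallothionein and zinc genes. Mt2 read 4.52 and 5.56 in Ly6D- CLPs and 8.36, 7.20 and 8.04 in CD127+ LMPPs. Each CLP array was below each LMPP array, and the decrease of Mt2 was 7.08-fold (log2 difference -2.82, SE 0.36, adjusted p = 0.00708), a call that held without each array. With the brightest Mt2 probe set alone the adjusted p was 0.0658. Mt1 read 5.98 and 5.87 against 7.83, 7.11 and 7.57. It was 3.00-fold lower (adjusted p = 0.0244), and the adjusted p was 0.0742 and 0.11 without Ly6D- CLP array 1 and 2, 0.0716 and 0.0801 without CD127+ LMPP array 1 and 3, and 0.0516 after span correction. Mt1 was as high in CD127- LMPPs (mean 7.38), whereas Mt2 was lower there (mean 5.84). The Mt2 promoter window is shown for its matches to TGCNCNC, in capitals. These letters are a looser form of the core of metal response elements, so a match need not be such a core. The window holds 5 matches, with both strands counted, and 1.28% of the 32851 windows hold 4 or more, against 44.4% with at least 1.
Mt2 (chr8:94172368-94172617, + strand): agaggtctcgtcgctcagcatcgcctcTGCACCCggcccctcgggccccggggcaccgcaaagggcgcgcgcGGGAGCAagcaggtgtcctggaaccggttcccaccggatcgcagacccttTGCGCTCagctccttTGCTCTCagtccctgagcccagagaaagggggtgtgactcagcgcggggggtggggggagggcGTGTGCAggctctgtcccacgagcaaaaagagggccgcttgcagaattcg

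Ifit3, an interferon-induced gene, read 3.77 and 3.80 in Ly6D- CLPs and 4.95, 6.41 and 6.09 in CD127+ LMPPs. It was at least 2.58-fold lower (adjusted p = 0.0298), the 1 call of 20 interferon response genes, whose median was -0.024. The call was lost without either Ly6D- CLP array (adjusted p = 0.0925 and 0.117) or without CD127+ LMPP array 2 (0.0853) or 3 (0.094). The brighter of the 2 Ifit3 probe sets gave -0.15 (adjusted p = 0.82). Among 15 guanylate-binding and Gimap genes, Gbp4 was called higher (1.97-fold, adjusted p = 0.0307), with a list median of 0.166. The Gbp4 call was lost without any of the 5 compared arrays (up to 0.137). Gbp3, Gbp6, Gbp8 and Gbp9 had differences from 0.88 to 1.00 that did not pass (adjusted p from 0.0523 to 0.357). Gbp7 differed by 0.07, Gbp2 by -0.50 and the Gimap genes by -0.13 to 0.38, and none of these passed.

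Genes of the translation and energy machinery tended to be lower in Ly6D- CLPs, and so did short genes in general. Of 70 cytoplasmic ribosomal protein genes 4 were called lower and none higher. The share called lower was 1.42% over all genes. It was 6.07% in the shortest class of gene span among genes above the low-signal limit, described below. For the ribosomal list an unadjusted p under 0.05 was reached by 21 lower and 2 higher ones, and the median was -0.264. Rpl8, a protein of the large ribosomal subunit, read 10.46 and 10.48 in Ly6D- CLPs and 11.09, 11.10 and 11.03 in CD127+ LMPPs. It was 1.52-fold lower without overlap (adjusted p = 0.0475). Rps27, Rpl30 and Rpl31 were 2.46-fold, 2.19-fold and 1.89-fold lower (adjusted p = 0.0196, 0.0256 and 0.0229). None of the 4 was called after span correction, where the list's median was -0.06, or without CD127+ LMPP array 1 or 3. None of the 4 stayed called without Ly6D- CLP array 1 either, and without CD127+ LMPP array 2 only Rpl30 of the 4 did. The brightest probe set of Rpl30 gave -0.23 (adjusted p = 0.582). Of 30 clustered histone genes 3 were called lower, with a median of -0.25 that became 0.03 after span correction.

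Nuclear genes of the mitochondria were lower too, in lists chosen after values were seen. Of 72 mitochondrial ribosomal protein genes 11 were called lower and none higher, with a median of -0.42. Among all genes 1.42% were called lower. Mrpl52 read 8.10 and 7.98 in Ly6D- CLPs and 9.72, 9.64 and 9.58 in CD127+ LMPPs. Its groups were tight and far apart, a 3.04-fold decrease (log2 difference -1.60, SE 0.13, adjusted p = 0.000857) that held without each array, while its brightest probe set gave -0.80 (adjusted p = 0.0545). Of 83 genes of oxidative phosphorylation 8 were called lower and none higher, with a median of -0.39. Cox5a, a cytochrome c oxidase subunit gene, read 9.68 and 9.61 against 10.74, 10.74 and 10.77. It was 2.15-fold lower (adjusted p = 0.00708), and the call held without each array. After span correction the medians of these lists were -0.31 and -0.23, and 4 and 5 members were called lower.

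Gene span, from the RefSeq annotation, moved with the differences. Genes called lower had a median span of 4.84 kb, those called higher 18.0 kb and all genes 16.1 kb. Genes above the low-signal limit were put into 4 equal classes by span. The shortest class had a median difference of -0.21 and 193 genes called lower (6.07%), while the longest class had a median of 0.10 and 18 called lower (0.567%). Within each array, the median of the shortest class minus that of the longest was -0.75 and -0.79 in Ly6D- CLPs. It was -0.50, -0.48 and -0.52 in CD127+ LMPPs, -0.58, -0.66 and -0.53 in CD127- LMPPs and -0.65 and -0.66 in Ly6D+ CLPs. The arrays of the compared groups did not overlap in this measure. Its part in the decreases was not tested beyond the span correction.

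**Figure D4:**
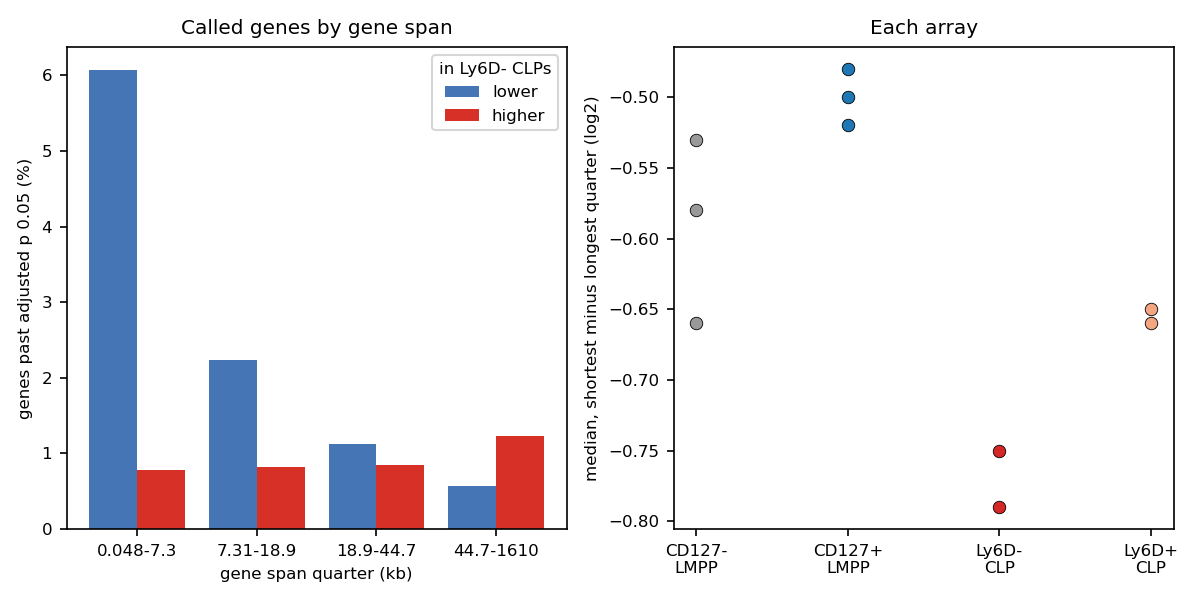
Left, the share of genes called lower (blue) or higher (red) in Ly6D- CLPs in 4 equal classes of gene span, in kb, among genes above the low-signal limit. Right, for each array, the median log2 value of the shortest class minus that of the longest. The share called lower falls from 6.07% to 0.567% with span, and the Ly6D- CLP arrays have the lowest values at -0.75 and -0.79.

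Small nucleolar and Cajal body RNAs held the largest decrease of all genes. Scarna2, which guides the modification of spliceosomal RNA, read 4.11 and 6.11 in Ly6D- CLPs and 10.49, 10.50 and 9.91 in CD127+ LMPPs. The CLP arrays differed from each other by much but both lay far below, at 36.6-fold lower (log2 difference -5.19, SE 0.50, adjusted p = 0.00167). Scarna13 read 6.12 and 7.17 against 9.57, 9.52 and 9.33. It was 7.11-fold lower without overlap (adjusted p = 0.000857), and Snora44 was 2.77-fold lower (adjusted p = 0.00423). In each of these the CD127- LMPPs lay near the CD127+ LMPPs and the Ly6D+ CLPs near the Ly6D- CLPs, as for Scarna2 with means of 10.36 and 4.20. Snord61 went the other way, 2.74-fold higher in Ly6D- CLPs (adjusted p = 0.00708). Each of these genes rests on 1 probe set, and all 4 calls held without each array. Of the 83 measured small nucleolar and Cajal body RNA genes 4 were called lower and 1 higher, against 1.42% and 0.635% over all genes. The list's median of -0.166 became 0.02 after span correction.

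Few markers of other cells were bright enough to judge. None of the 12 mast cell, basophil and eosinophil, 13 macrophage and monocyte, 9 mature B and plasma cell, 13 stroma and endothelium or 18 homing and adhesion genes was called. In that order, 8, 8, 5, 8 and 0 of them had both group means below the low-signal limit, where a difference could hardly show. At an unadjusted p under 0.05 the counts higher and lower were 1 and 1, 1 and 2, 1 and 0, 1 and 1, and 4 and 1. Prg2, the eosinophil major basic protein gene, had the largest difference of the mast cell, basophil and eosinophil list, -1.35 (adjusted p = 0.206). Emcn, an endothelial and stem cell sialomucin gene, differed by -0.72 (adjusted p = 0.0594) and S1pr3, a sphingosine phosphate receptor gene, by 0.76 (adjusted p = 0.121). Of 29 cell cycle genes Cdc20, an activator of mitotic exit, was called lower (1.80-fold, adjusted p = 0.0339), with a list median of -0.013, and the adjusted p was 0.139 without Ly6D- CLP array 1 and 0.0776 after span correction. In sorted bulk RNA, fewer cells with a transcript and less of it per cell cannot be told apart, for these and all genes above.

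**Figure D5:**
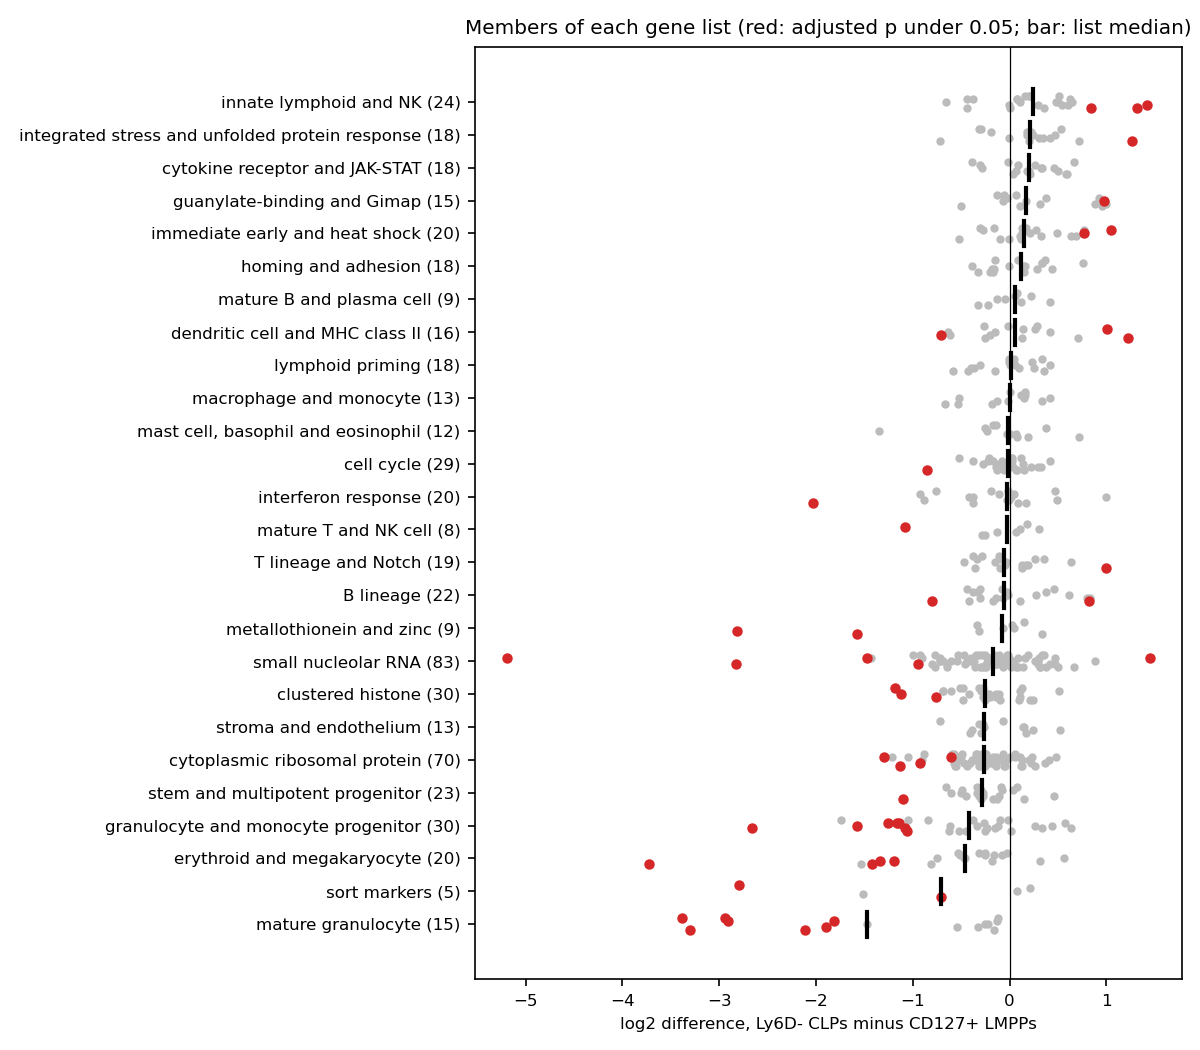
Log2 differences, Ly6D- CLPs minus CD127+ LMPPs, of the measured members of the 26 gene lists used for naming (number in brackets), with called genes in red and a bar at the list's median. Among these 26 lists the mature granulocyte list has the lowest median, -1.471, with all 15 members below 0, and the innate lymphoid and NK list the highest, 0.246.

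Prss3, a trypsinogen gene chosen after its values were seen, read 4.57 and 4.44 in Ly6D- CLPs and 2.96, 2.82 and 2.84 in CD127+ LMPPs. It was called higher in Ly6D- CLPs, was lower in Ly6D+ CLPs by 1.62 log2 (adjusted p = 0.00195) and stood at a mean of 2.91 in CD127- LMPPs. Its level hardly exceeded the low-signal limit, so its fold is at least 1.04 (log2 difference 1.63, adjusted p = 0.000857), and the brighter of its 2 probe sets gave 0.97 (adjusted p = 0.1). Gfra2, a receptor gene of the GDNF family, was under the limit in Ly6D- CLPs (mean 4.02) and near it in CD127+ LMPPs (4.58, adjusted p = 0.0893), and was higher in Ly6D+ CLPs than in Ly6D- CLPs by 2.19 log2 (adjusted p = 0.000292).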

How the data were processed

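The deposited table holds 269751 probe set values on each of 10 Affymetrix arrays of total RNA. The authors made these values with Affymetrix Power Tools, per the submitters' processing notes. Not given in the sources used here are its version, normalization, log base and genome build. The deposited values were read as log2 from their range of 0.20433 to 14.79009. The 233753 probe sets with 1 gene symbol were averaged to 23152 genes (median 8 probe sets, 2319 genes on 1). Probe sets with several symbols (5106) or none (30892) were left out. Array quartiles differed by at most 0.1252, and the values were used as deposited. Precision is limited by how few arrays there are.

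limma 3.58.1 in R 4.3.3 fitted 1 mean for each of 4 groups over 10 arrays, with default eBayes and Benjamini-Hochberg adjustment at 0.05. Ly6D- CLPs minus CD127+ LMPPs is the comparison described. Ly6D+ CLPs minus Ly6D- CLPs called 23 genes (0.0993%) and tests whether the CLP groups differ. The arrays of Ly6D- CLPs are shared by both. Simulated data with known changes were used to test the fit.

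The compared groups, gene lists and tests were chosen with earlier results of these data known. The naming rule took, per direction, the 12 called genes of largest difference with arrays that did not overlap and at least 3 probe sets, leaving out predicted, small RNA, antigen receptor and sensory receptor genes. It added the 5 sort markers and, from each of 26 lists, up to 4 called members, or else the largest difference. It gave 66 genes. Others were named after their values were seen. Some list members are not analysed here. Symbols were matched to the RefSeq table of GRCm38.p6 (20875 current, 2274 older synonyms, 3 absent). Gene span was known for 99.9% of genes and for all called genes. The span correction subtracts a smooth curve of each array's deviation on log10 span. Promoter windows were shortened to the 250 bases before the start.

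Settings changed one at a time were the scaling (quantile, median centring), the probe set summary (median, brightest), a filter on dim genes, the eBayes options, array weights, a replicate block, a 2-fold limit, the arrays fitted (only those compared, or all but 1) and the span correction. Tables used pandas 2.3.3 and numpy 2.4.6 under Python 3.11.15, and plots matplotlib 3.10.9.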

Additional observations from a re-analysis of the deposited data

Results flagged for a closer look

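For 11 named genes the difference from CD127+ LMPPs was unequal in the CLP groups, as limma's test of Ly6D+ CLPs minus Ly6D- CLPs passed with Benjamini-Hochberg adjustment over all genes (23 genes in all, 0.0993%). Higher in Ly6D+ CLPs were Ly6d by 5.45 log2 (adjusted p = 6.43e-07, and the gene of the sort), Rag1 by 2.60, Ebf1 by 2.55, Vpreb2 by 2.46 and Gfra2, a GDNF family receptor gene on none of the lists, by 2.19. Genes lower in Ly6D+ CLPs were Rab38 (-1.03), Ctsg (-1.29), Lst1 (-1.48), Prss3 (-1.62), Mc5r (-1.65) and Cpa3 (-2.12), which encode a vesicle transport protein, cathepsin G, a leukocyte transcript, a trypsinogen, a melanocortin receptor and a mast cell protease. In each of the 11 genes both Ly6D+ CLP arrays lay on the same side of both Ly6D- CLP arrays. The genes were picked by the test of this same difference, and the share over all genes was not counted. The separation therefore adds no support, and several of these genes were named after their values were seen. Groups of 2 and 3 arrays are too small to look for a single array that stands apart.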

How the results depend on the processing

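The 476 calls between Ly6D- CLPs and CD127+ LMPPs became 105 with the median probe set, 1339 with a filter on dim genes, 22 with the compared arrays alone, 1398 with trend and robust eBayes, 177 with array weights and 167 with a 2-fold limit. They were 590, 444 and 360 with quantile normalization, median centring and the brightest probe set, and 381 after span correction (chosen after seeing the data). With 1 array left out they ranged from 76 to 438. The 23 calls between the CLP groups became 11 with the median or the brightest probe set, 73 with the filter on dim genes, 1 with the compared arrays alone, 78 with trend and robust eBayes and 13 with array weights, and ranged from 6 to 27 with 1 array left out. Deviations of same-numbered arrays correlated at -0.043 to 0.127, and those of other-numbered arrays at -0.136 to 0.136. In groups of 2 arrays the deviations are mirror images, so this check could not settle if replicate numbers pair the arrays. A replicate block gave 104 and 8 calls. Of 79 named calls, 10 kept direction and threshold in every setting run and 19 without each array. Signs turned with the brightest probe set for Il18r1 (-0.02) and Cd83 (-0.30). The cause was not tested.

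Precision is limited by 2 and 3 arrays per group. The compared arrays alone leave few degrees of freedom, and the filter on dim genes tests fewer genes. Of the 476 genes, 41 had both group means below the low-signal limit and 46 rest on 1 probe set.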
